A study of Mus musculus with 32 samples.

Results

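The 6 arrays described here measured RNA of mouse C2C12 cells carrying the empty pHan vector, 3 of them made 12 h and 3 made 36 h into differentiation (the DM of their titles, which the descriptions of the other arm of the study spell out as differentiation medium). They were taken by their titles from the 32 arrays of the series, and all 6 entered every comparison. Besides them the series holds 6 arrays of cells carrying pHan with Sir2 at the same 2 times, and 20 arrays of a separate arm of control cells and cells given trichostatin A (TSA), an inhibitor of histone deacetylases, sampled from 0 h to 48 h with 2 arrays a group. The 2 vector groups have the same line and vector in their labels and differ there by time alone, and the labels give no promoter, selection or dose of virus for the vector. C2C12 is an established line of skeletal myoblasts, with no nerve, vessel or immune cell beside it, and cells without the vector were not analysed here in this arm. Nothing in the labels says that arrays of a group came from separate cultures, and the p-values therefore measure only the spread between these samples, which may be technical.

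Myoblasts are the dividing precursors of muscle. When serum is withdrawn they leave the cell cycle, switch on the transcription factors Myog and Mef2 behind MyoD, fuse into multinucleated myotubes and fill them with the repeating actin and myosin arrays called sarcomeres. The interval compared here runs from early commitment to the time at which C2C12 cultures usually form their first myotubes.

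Between 12 h and 36 h the vector cells raised contractile, calcium-handling and muscle metabolic genes together with genes of the amino acid response, and lowered genes of DNA replication, mitosis and sterol synthesis. Values are MAS5 signal intensities, 1 per probe set and array, each array having been scaled to the same trimmed mean. A log2 change is the difference of mean log2(intensity + 8.82), given with its standard error from limma, and a gene was called higher or lower where its Benjamini-Hochberg adjusted p over all 7453 probe sets tested was under 0.05. Of the probe sets tested, 922 (12.4%) were higher at 36 h and 1467 (19.7%) were lower. The excess of falls depended on the scaling. It was smaller under quantile normalization (1020 higher and 1387 lower) and under median centring (1144 higher and 1252 lower). With 1 probe set per gene, 717 of 5621 genes (12.8%) were higher and 1147 (20.4%) were lower, and the median change of all genes was -0.03. The rises reached further than the falls: 61 genes rose and 15 fell by at least 4-fold on this scale, and 16 rose and 2 fell by at least 8-fold. The precision is limited by the number of arrays.

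No array stood apart. Each correlated with the mean of the other arrays of its group at a Spearman coefficient of 0.970 to 0.978 over all 12 arrays of the arm, and medians ran from 50.4 to 57.5. The ratio of 3′ to 5′ probe sets of Gapdh, a sign of RNA integrity, was 0.757 to 0.843 at 12 h and 0.824 to 0.885 at 36 h, and that of Actb was 1.06 to 1.14 and 1.04 to 1.10. Their part in the results was not tested.

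The 12 genes with the largest rise were Myl4, Cox6a2, Mb, Trib3, Csrp3, Myh3, Cav3, Myh8, Myh7, Mybph, Myh1 and Myom1, and all but Trib3 encode proteins of muscle. Myl4, the embryonic and atrial essential light chain of myosin, read 85.1, 83.4 and 83.0 on the 3 arrays of 12 h and 2898, 3002 and 3125 on those of 36 h, a mean 35.9-fold higher. The log2 change was 5.02 ± 0.15 (adjusted p = 1.7e-09). A second probe set of Myl4 rose by less, 0.78 (adjusted p = 0.0088). Cox6a2, the heart and muscle form of a cytochrome c oxidase subunit, went from 71.7, 51.5 and 78.2 to 2035, 2258 and 2323 (log2 change 4.88 ± 0.31, adjusted p = 3.3e-07). Mb, which encodes the oxygen store myoglobin, went from 64.5, 59.5 and 95.2 to 1428, 1715 and 1837. Csrp3, a LIM protein of the Z-disc, read 7.95, 7.15 and 11.1 at 12 h, below the mean intensity of 31.1 under which probe sets were not tested, and 282, 342 and 391 at 36 h. Of these 12 genes, Trib3, Csrp3, Cav3, Myh8, Myh7 and Myom1 had a mean under that value at 12 h, so the pseudocount compresses their fold changes.

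**Figure D1:**
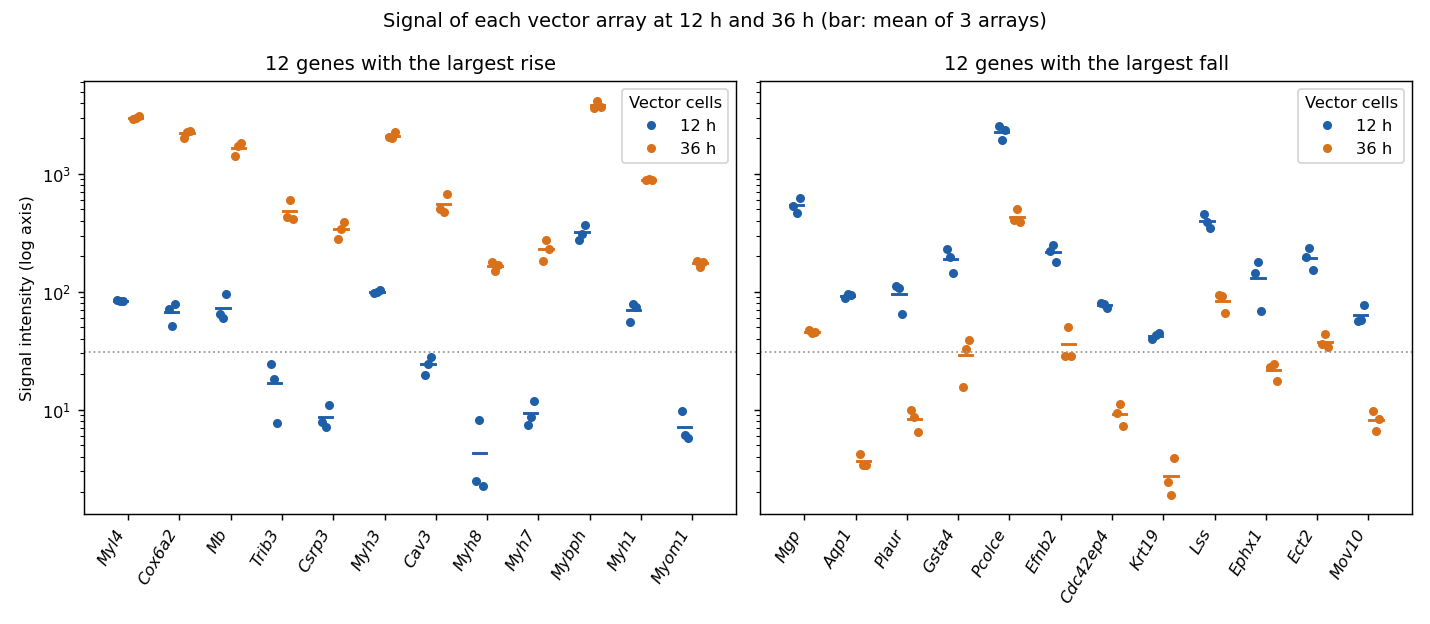
Signal of the 12 genes with the largest rise (left) and the largest fall (right) in vector cells, on a log axis; dots are single arrays at 12 h and 36 h, bars are means of 3 arrays, and the dotted line is the mean intensity of 31.1 below which probe sets were not tested. The genes were chosen for called changes without overlap between the times; Myl4 and Mgp have the largest on the scale with the pseudocount.

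Among the genes that fell, Mgp had the largest log2 change with the pseudocount of 8.82, and with a pseudocount of 1 the fall of Aqp1 was larger than that of Mgp. Mgp, a secreted inhibitor of calcification, read 538, 469.9 and 623 at 12 h and 47.5, 44.5 and 45.5 at 36 h, a 11.9-fold lower mean (log2 change -3.33 ± 0.15, adjusted p = 2.2e-08). The water channel Aqp1 went from 87.8, 95.0 and 94.9 to 4.23, 3.42 and 3.43, and Plaur, the receptor of urokinase, from 113, 108 and 64.4 to 9.96, 8.69 and 6.51. At 36 h both were far below the filter value, so their fold is poorly bounded. Pcolce, an enhancer of procollagen cleavage, stayed well measured at both times, at 2530.3, 1943 and 2378 and then 406, 506 and 394. The others of the 12 were Gsta4, Efnb2, Cdc42ep4, Krt19, Lss, Ephx1, Ect2 and Mov10, with log2 changes from -2.10 to -2.43.

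Thick filament genes rose almost as a block. Of 18 on the array 13 were tested, 12 rose and none fell, against 12.8% of all genes tested, with a median log2 change of 3.53 beside -0.03 for all genes. Myh3, the embryonic myosin heavy chain, read 97.4, 100.2 and 104 at 12 h and 2048, 2011 and 2259 at 36 h and had the smallest p of the comparison (log2 change 4.27 ± 0.10, adjusted p = 2.1e-10). Both sets of 3 arrays were tight. Arrays without overlap were required of the genes of largest change. Of the 717 genes called higher 701 had them, as had 1127 of the 1147 called lower. The call and the lack of overlap come from the same arrays, so these counts add no support. The perinatal chain Myh8 changed by 3.76, the slow chain Myh7 by 3.70 and the adult fast chain Myh1 by 3.53. The heavy chain genes are alike in sequence, so these rises cannot be assigned to single chains with certainty. The probe set of Myh7 carries the suffix of sets shared by a gene family, and a second one for Myh7 did not pass (0.93, adjusted p = 0.065). Myh4 was the tested member that did not pass, at -0.02 ± 0.32. Myl1, an essential light chain of fast fibres, went from 875, 864 and 962 to 5734, 5935 and 6463. Mybph, a myosin-binding protein, went from 274, 312 and 371 to 3613, 4178 and 3682, and Myom1, a crosslinker of the M-band, from 9.77, 6.09 and 5.72 to 183, 161 and 181.

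Thin filament and Z-disc genes rose in most but not all cases: 18 of 23 tested were higher and 3 lower, with a median of 1.42. The count of falls is 1 without replicate 1 of 36 h or replicate 3 of 12 h. Acta1, the skeletal alpha actin, read 1600.1, 1642 and 1486 and then 6374, 6925 and 7011, a 4.30-fold higher mean (log2 change 2.10 ± 0.10, adjusted p = 4.0e-08). Actc1, the cardiac actin that embryonic skeletal muscle also makes, went from 1911, 1805 and 2055 to 5369, 5247 and 5137. Of the troponins, which make the filament answer to calcium, 7 rose and the cardiac Tnni3 fell by 0.49. The largest rises were 3.35 ± 0.13 for Tnnt3, the tropomyosin-binding subunit of fast fibres, 3.26 ± 0.14 for Tnnc1, the calcium-binding subunit of slow and cardiac fibres, and 2.84 ± 0.18 for its fast counterpart Tnnc2. The slow inhibitory subunit Tnni1 rose by 2.30 ± 0.12. Tnni1 was already at 1453, 1355 and 1735 at 12 h and reached 7341, 7471 and 7582. One of the falls was in the same filament: Tpm1, a tropomyosin that lies along actin and has muscle and non-muscle isoforms, went from 1517, 1548 and 1558 to 493, 579 and 537 (log2 change -1.51, adjusted p = 3.6e-07). Tpm2 and Tpm3 rose by 0.92 and 0.81, so the tropomyosins moved in opposite directions. The third fall was Fhl1, a LIM protein, by 0.36. Des, the intermediate filament that links the Z-discs, was high at both times, at 328, 352 and 382 and then 557, 462 and 542, and Myoz1 and Tcap did not pass, at -0.80 ± 0.43 and 0.45 ± 0.42.

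The promoters of Acta1 and Tnni1 are shown because both genes rose, encode parts of the thin filament and hold the E-box CAGCTG, a form that MyoD and its relatives bind. The 250 bases before each gene's start follow 5′ to 3′ on the gene's strand, from RefSeq on GRCm38.p6 (mm10), with CAGCTG in capitals.
Acta1, chr8:123894776-123895025, minus strand: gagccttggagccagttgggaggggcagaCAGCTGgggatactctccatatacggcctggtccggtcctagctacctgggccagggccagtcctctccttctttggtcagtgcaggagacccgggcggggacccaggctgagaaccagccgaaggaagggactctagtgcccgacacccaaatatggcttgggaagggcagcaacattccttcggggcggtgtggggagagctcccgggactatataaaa
Tnni1, chr1:135799171-135799420, plus strand: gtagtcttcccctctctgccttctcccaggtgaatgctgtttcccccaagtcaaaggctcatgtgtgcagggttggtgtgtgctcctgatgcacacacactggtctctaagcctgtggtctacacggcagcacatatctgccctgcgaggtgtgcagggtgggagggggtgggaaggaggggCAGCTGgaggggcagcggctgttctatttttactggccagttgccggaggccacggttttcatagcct
The letters CAGCTG read the same on both strands and stood 221 to 216 bases before the start of Acta1 and 68 to 63 before that of Tnni1. Of the 36 tested genes of the thick and thin filament lists 28 had a promoter listed, and 11 of these (39.3%) held CAGCTG. Of all 27025 promoters 12.8% did, and of the 4562 of tested genes 10.8%. Among genes called higher the share was 13.6%, and among those called lower 9.60%. A match is a description of letters and shows no binding.

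Genes that couple the membrane signal to contraction rose with the filaments. In the list of calcium channels, pumps and stores 10 of 12 tested genes rose and none fell, with a median of 1.21. Cacna1s, the voltage sensor of the transverse tubule, went from 57.3, 85.8 and 95.6 to 657, 714 and 646 (log2 change 2.97 ± 0.21, adjusted p = 8.1e-07). Ryr1, the calcium release channel that it opens, went from 183, 229.8 and 244 to 931, 1125 and 988. The calcium pumps of the sarcoplasmic reticulum both rose, Atp2a1 of fast fibres by 2.68 and Atp2a2 by 2.29, though both probe sets are of a kind that can match more than 1 transcript. Casq1 and Casq2, which hold calcium in the store, rose by 0.99 and 1.32. Sln and Fkbp1a, the tested members that did not pass, were at 0.37 ± 0.28 and -0.14 ± 0.12.

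The sarcolemma, the plasma membrane of the fibre, showed one large rise and several small ones. Of 13 tested genes of the dystrophin complex and sarcolemma 9 rose and 1 fell, with a median of 0.69. Cav3, the muscle caveolin, went from 19.8, 24.6 and 28.1 to 500.0, 480.0 and 674 (log2 change 4.08 ± 0.16). Cav1, the caveolin of most other cells, went the other way, from 652, 633 and 507 to 220.0, 166 and 192. A second, dimmer probe set of Cav1 was at -0.06 (adjusted p = 0.89). Alpha-sarcoglycan, Sgca, read 150.5, 138 and 144 and then 368, 339.8 and 342, and the syntrophin Sntb1 69.4, 72.9 and 84.3 and then 144, 164 and 164. Dag1, which encodes dystroglycan, rose by 0.69, and Utrn, the homologue of dystrophin, was at 0.04 ± 0.15. Of 10 tested genes of the acetylcholine receptor and neuromuscular junction 5 rose, led by the fetal gamma subunit Chrng with 482, 409 and 547 and then 1416, 1542 and 1371. Chrnb1, Chrnd and Erbb3 rose by 0.76 to 0.79, Chrna1 rose by 0.42, and the adult subunit Chrne was at 0.05 ± 0.22.

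Muscle energy genes rose in 13 of 16 tested members and fell in 2, with a median of 1.77; the count of falls is 1 under median centring, with no filter, in a fit of the 6 vector arrays alone, and without replicate 2 or 3 of 12 h or replicate 1 or 2 of 36 h. Glycogen breakdown was represented by Pygm, muscle glycogen phosphorylase, with 217, 209.9 and 218 at 12 h and 1102, 1061 and 1023 at 36 h (log2 change 2.26 ± 0.10, adjusted p = 1.4e-08). Pfkm, the muscle form of phosphofructokinase, went from 206, 248 and 241 to 1561, 1412 and 1637, and Fabp3, a carrier of fatty acids, from 24.1, 27.1 and 30.7 to 168, 179.6 and 207. The insulin-responsive glucose transporter Slc2a4 rose by 2.02 ± 0.26 from a level under the filter value. Creatine kinase of muscle, Ckm, went from 46.8, 41.7 and 57.0 to 252, 271 and 377, but its other tested probe set read 49.95 ± 8.22 and 57.32 ± 8.50 (SD, n = 3) and did not pass (adjusted p = 0.72). Car3, a carbonic anhydrase abundant in slow fibres, was the clearest fall in the list, from 357, 271 and 253 to 105, 96.1 and 94.6 (log2 change -1.48 ± 0.14). Slc25a4, the ADP/ATP carrier of muscle mitochondria, fell by 0.31. Eno3, the muscle enolase, rose by 0.65, and Cox8b, a second muscle-type subunit of cytochrome c oxidase, by 0.98.

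Pairs of related genes, one of them used mainly by muscle, separated in several cases. Cox6a2 rose while its general counterpart Cox6a1 was at -0.28 ± 0.13 (adjusted p = 0.11; 0.048, and then lower, under quantile normalization). The 2 phosphoglycerate mutases moved in opposite directions: Pgam2 of muscle went from 72.0, 68.3 and 71.8 to 281, 329 and 339.9. The general Pgam1 went from 1758, 1697 and 1572 to 920.5, 945 and 937. Regulatory light chains did likewise, with 1.23 ± 0.18 for Mylpf of fast fibres and -0.52 ± 0.15 for the smooth and non-muscle Myl9, whose call is lost without replicate 1 or 3 of 12 h or replicate 1 or 2 of 36 h. Slc2a4 rose and the general glucose transporter Slc2a1 was at -0.18 ± 0.19. Creatine kinase did not separate, since brain-type Ckb rose too, from 1401, 1158 and 1569 to 3229.7, 3192 and 3123. Of the integrin alpha chains Itga7 was at 0.19 ± 0.12. Itga5 read 117, 119.6 and 111 at 12 h and 116, 148 and 18.6 at 36 h and did not pass; without replicate 3 of 36 h its change is 0.16 and not -0.62. Cox7a1, Cox8a and Myl6 were under the filter value and were not tested.

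**Figure D2:**
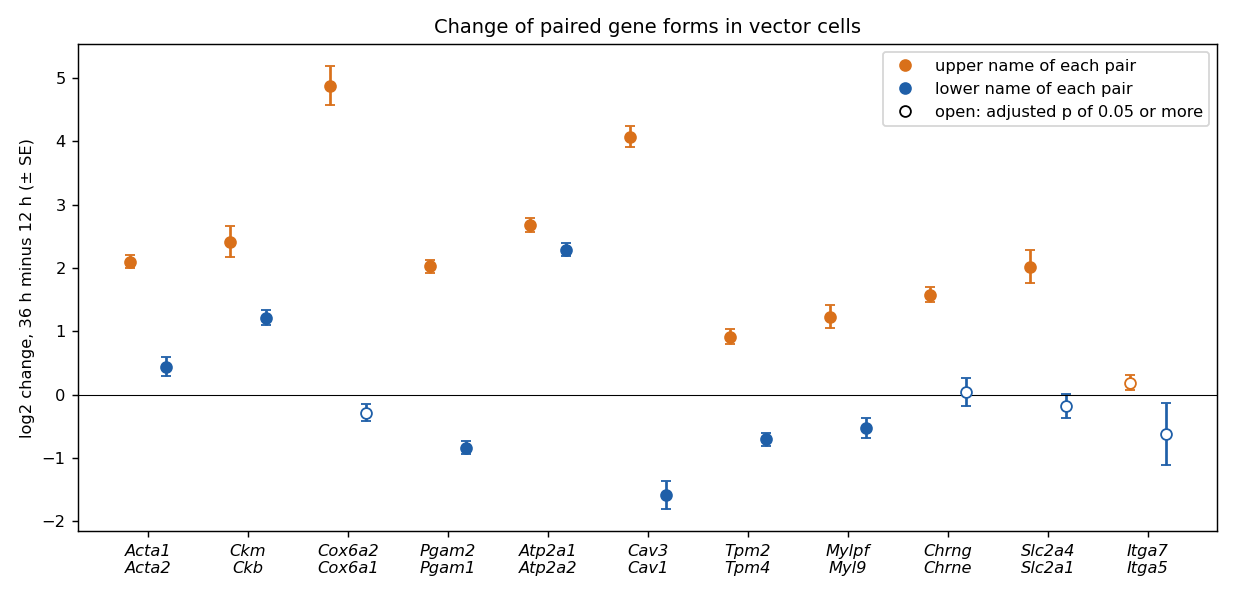
Log2 change from 12 h to 36 h in vector cells, with its standard error, for 11 pairs of related genes; the upper name of each pair is drawn in orange and the lower in blue, and open symbols did not pass an adjusted p of 0.05. In the Pgam, Cav, tropomyosin Tpm2 and Tpm4, and Mylpf and Myl9 pairs, the upper gene lies above 0 and the lower gene below it, both past the threshold.

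The factors that direct the program changed less than its products. Myog, which drives terminal differentiation, was already at 1558, 1492 and 2055 at 12 h and read 3644, 3619.7 and 3312 at 36 h (log2 change 1.06 ± 0.20, adjusted p = 0.0018). Myod1 went from 1261, 1099.5 and 1127 to 1716, 1514 and 1429.5, a change of 0.41 ± 0.11 that is not called without replicate 1 of 36 h (adjusted p = 0.055). Myf5, the factor of undifferentiated myoblasts, fell from 143, 214 and 132 to 88.8, 92.3 and 95.5. Mef2c rose most, from 8.62, 9.59 and 29.0 to 124, 134 and 139 (log2 change 2.62 ± 0.31), with 1 of the 12 h arrays about 3 times above the others. Mef2a rose by 0.56 ± 0.13 (a dimmer second probe set was at 0.45, adjusted p = 0.29) and Mef2d was at 0.17 ± 0.13. Tead4, a partner factor at muscle promoters, rose by 1.92 ± 0.20, and Tcf4, an E protein that pairs with MyoD, fell by 0.84. In the whole list 6 of 17 tested factors rose (35.3%) and 4 fell (23.5%), with a median of 0.17, where 12.8% and 20.4% of all genes did. Myf6 was under the filter value, at 11.5, 3.22 and 17.3 and then 45.7, 28.2 and 49.2.

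Genes that hold back MyoD were mixed. Of 16 tested inhibitors 2 rose (12.5%) and 6 fell (37.5%), with a median of -0.18, where 12.8% and 20.4% of all genes did. The falls numbered 3 without replicate 2 or 3 of 12 h or replicate 3 of 36 h. The rises, Bhlhe40 and Snai2, numbered 1 without replicate 3 of 12 h or replicate 1 or 3 of 36 h. Notch2 and Notch3, receptors of the Notch pathway, fell by 0.81 and 0.84; a second, dimmer probe set of Notch2 was at 0.22 (adjusted p = 0.75). Id2, an inhibitor that ties up E proteins, went from 159.9, 189 and 106 to 83.9, 86.4 and 80.4 (adjusted p = 0.011; 0.051 without replicate 2 of 12 h). Id3 fell by 0.55 but is not called under median centring, with no filter, in a fit of the 6 vector arrays alone, or without any one vector array other than replicate 1 of 36 h. Id1 was at 0.21 ± 0.14. Bhlhe40, a repressor of the same class of factors, rose from 224, 281 and 199 to 415, 445 and 352.

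Several genes that stop the cell cycle rose. Gadd45a, a growth arrest gene, went from 337, 303 and 255 to 2352, 2355 and 2011 (log2 change 2.88 ± 0.12, adjusted p = 1.4e-08), and Cdkn1c, the kinase inhibitor p57, from 158, 219 and 212 to 1217, 1365 and 1327. Cdkn1a, the inhibitor p21 that MyoD induces, doubled from 1137, 1109 and 1233 to 2491, 2332 and 2421 (2.08-fold). Rb1, the retinoblastoma gene, rose by 1.08 ± 0.16 on one probe set and was at 0.40 on another (adjusted p = 0.12). Among the D cyclins Ccnd1 fell from 205, 221 and 200.2 to 105, 89.7 and 105 and Ccnd3, which persists in myotubes, rose from 753, 791 and 869.6 to 1497, 1268 and 1007. The list as a whole had 5 rises (26.3%) and 9 falls (47.4%) in 19 tested genes, where 12.8% and 20.4% of all genes rose and fell. Among the falls were Cdkn2d, the kinase inhibitor p19, and Gadd45g, a relative of Gadd45a, by 1.15 and 0.83.

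Mitosis had the highest share of falls among the 37 lists. Of 40 tested genes of mitosis and cytokinesis 38 fell and none rose, against 20.4% of all genes tested, with a median of -1.21 and every tested member below 0. The exceptions were Ube2c and H2az1, at -0.13 ± 0.27 and -0.25 ± 0.20. Cdc20, which starts the exit from mitosis, read 1184, 1049 and 1160.0 at 12 h and 305, 324 and 270.0 at 36 h, a 3.78-fold lower mean (log2 change -1.89 ± 0.10, adjusted p = 9.4e-08). The spindle kinase Aurka went from 267, 278 and 258 to 69.5, 65.5 and 70.8, and Anln, a scaffold of the cleavage furrow, from 806, 896 and 844 to 253, 259.9 and 257. Ect2, which places that furrow, had the largest fall of the list, 2.11, followed by the proliferation marker Mki67 with 1.97. Replication followed at a smaller size: 30 of 38 tested genes fell, none rose, and the median was -0.86. Top2a, the topoisomerase of dividing cells, went from 389.7, 399.9 and 354 to 133, 137 and 126, and Rrm1, the large subunit of ribonucleotide reductase, from 457, 428 and 422 to 139.7, 173 and 169. Fen1 and Rfc5, which trim and load at the fork, fell by 1.10 and 1.26; a second probe set of Rfc5 was at -0.03 (adjusted p = 0.96). At 36 h mitotic RNA was still well above the filter value, with Cdc20 at 299 ± 27.3 (SD, n = 3). In these bulk samples fewer cells that hold an RNA and less of it per cell cannot be told apart.

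The promoters of Cdc20 and Cdk1, the mitotic kinase, are shown because they hold both elements known from cell cycle promoters, the CHR (TTTGAA) and the CCAAT box that NF-Y binds. Cdk1 fell by 1.55 ± 0.16 on the log2 scale. Capitals mark TTTGAA and CCAAT on either strand, in the 250 bases before the start.
Cdc20, chr4:118437344-118437593, minus strand: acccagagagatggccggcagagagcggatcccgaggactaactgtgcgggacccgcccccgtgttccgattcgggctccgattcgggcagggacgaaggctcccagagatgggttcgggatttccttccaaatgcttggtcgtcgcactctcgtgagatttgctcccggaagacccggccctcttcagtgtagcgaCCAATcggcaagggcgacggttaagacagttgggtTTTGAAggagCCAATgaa
Cdk1, chr10:69352913-69353162, minus strand: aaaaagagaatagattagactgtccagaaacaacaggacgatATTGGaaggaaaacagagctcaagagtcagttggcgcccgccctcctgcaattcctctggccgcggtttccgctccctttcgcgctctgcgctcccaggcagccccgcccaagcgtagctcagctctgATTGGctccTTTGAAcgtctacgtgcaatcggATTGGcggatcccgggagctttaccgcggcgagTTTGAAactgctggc
In Cdc20 the CHR lay between 2 CCAAT boxes, at 18 to 13 bases before the start, and Cdk1 held 2 CHRs and 3 CCAAT boxes; none of the matches overlapped. Of 31 tested mitosis genes with a promoter listed, 24 (77.4%) held CCAAT and 13 (41.9%) TTTGAA, where 34.5% and 16.3% of all promoters did, and 36.2% and 10.7% of those of tested genes. Over all genes called lower the shares were 41.9% and 11.4%.

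Sterol and lipid synthesis fell about as far as mitosis. Of 21 tested genes 17 fell and none rose, with a median of -1.19. Mvd, which makes the isoprene unit from mevalonate, went from 617, 679.5 and 608 to 149, 155 and 142 (log2 change -2.03 ± 0.11, adjusted p = 6.4e-08). Lss, which closes the sterol ring, went from 455, 390.0 and 345 to 93.5, 93.0 and 65.5, and Cyp51, which demethylates lanosterol, from 793, 838 and 589 to 237, 225 and 217. Nsdhl, a later step, fell on all 3 of its probe sets, by 0.93 to 1.41 on the log2 scale. Fasn, the fatty acid synthase, fell by 1.59 ± 0.17 and Acly, which supplies its acetyl units, by 1.93 ± 0.21. The 4 members that did not pass were Dhcr7, the last step to cholesterol, the regulator Srebf1 and the desaturases Scd1 and Scd2, with changes from -0.34 to 0.02.

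Genes that answer amino acid shortage and endoplasmic reticulum stress split. Of 23 tested, 12 rose and 4 fell, with a median of 0.45. Trib3 and Slc7a5 had the largest rises. Asns, asparagine synthetase, went from 564, 516 and 503 to 3103, 3130.4 and 2923 (log2 change 2.51 ± 0.11, adjusted p = 1.4e-08). Slc7a5 and Slc3a2, the light and heavy chains of one amino acid transporter, went from 451, 459 and 495 to 3212, 3423 and 2974 and from 444, 523 and 484 to 2194, 2039.6 and 2034. Trib3, a pseudokinase induced by ATF4, read 24.2, 18.2 and 7.78 at 12 h and 434, 600.1 and 416 at 36 h, and the factor Atf4 itself 1522, 1198 and 1287 and then 3495, 3402 and 3528. Ddit3, the stress factor CHOP, rose by 2.12 and Mthfd2, a mitochondrial enzyme of one-carbon metabolism, by 2.11. Herpud1, an adaptor of protein disposal at the reticulum, rose by 1.97 ± 0.12. The 4 falls were all chaperones of the reticulum: Pdia3, Pdia4 and Pdia6, which form disulfides, fell by 1.50, 1.15 and 0.92, and Hsp90b1 by 0.62. Hspa5, the chaperone BiP, was at -0.22 ± 0.14 (adjusted p = 0.26). Atf3, an early gene that also belongs to this response, rose on one probe set, from 56.2, 42.6 and 44.3 to 190.3, 194 and 176, and was at 0.18 on another (adjusted p = 0.58).

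Asns and Herpud1 are shown because both rose and both hold TGATGNAA, the composite site at which ATF4 pairs with a C/EBP factor. The capitals mark it on either strand.
Asns, chr6:7693210-7693459, minus strand: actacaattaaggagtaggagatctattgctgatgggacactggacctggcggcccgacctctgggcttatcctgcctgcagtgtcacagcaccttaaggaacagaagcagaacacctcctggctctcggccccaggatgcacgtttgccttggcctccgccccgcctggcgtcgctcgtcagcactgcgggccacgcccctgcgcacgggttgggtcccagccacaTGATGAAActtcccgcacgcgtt
Herpud1, chr8:94386179-94386428, plus strand: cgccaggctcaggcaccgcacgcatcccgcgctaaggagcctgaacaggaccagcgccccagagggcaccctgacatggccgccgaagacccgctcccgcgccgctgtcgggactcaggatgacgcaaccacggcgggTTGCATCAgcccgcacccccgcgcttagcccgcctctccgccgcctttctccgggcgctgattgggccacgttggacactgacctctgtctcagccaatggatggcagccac
The site stood 23 to 16 bases before the start of Asns and, on the opposite strand, 112 to 105 before that of Herpud1. Only 3 of the 22 genes of the list with a promoter in the table (13.6%) held it in this window, Nupr1 being the third, where 3.53% of all promoters and 1.95% of those of tested genes did. CCAAT was found in 15 of the 22.

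**Figure D3:**
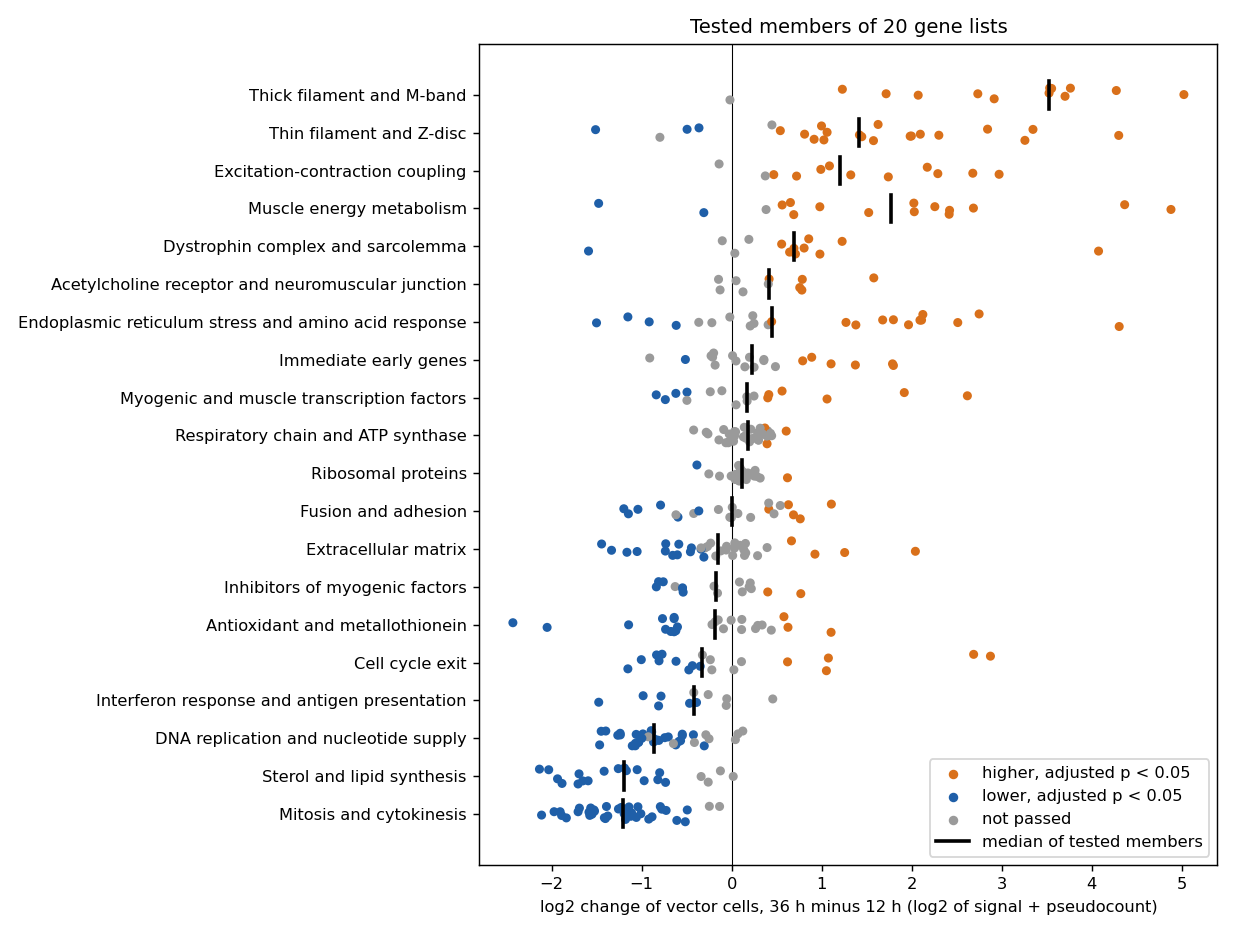
Log2 change from 12 h to 36 h in vector cells of each tested member of 20 gene lists; orange dots passed as higher, blue dots as lower, grey dots did not pass, and the black bar is the list's median. Thick filament genes sit furthest right with a median of 3.53, and sterol synthesis and mitosis furthest left with medians of -1.19 and -1.21.

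Growth factor genes moved in single members. Igf2, the growth factor that myoblasts make for themselves as they differentiate, went from 218, 239 and 322 to 1200.3, 1130.5 and 1191 (log2 change 2.16 ± 0.19, adjusted p = 4.6e-06), and its clearance receptor Igf2r rose by 0.78. The binding proteins Igfbp2 and Igfbp6 fell, from 2546, 2153 and 2152 to 902, 1025 and 914 and from 1017, 867 and 877 to 277, 326 and 306. Igf1 was at 0.03 ± 0.12. In the TGF-beta and activin family 4 of 26 tested genes rose (15.4%) and 5 fell (19.2%), close to the 12.8% and 20.4% of all genes tested. The rises numbered 7 under median centring and 2 without replicate 1 of either time, and the falls 3 without replicate 2 of 12 h. Fst, the activin and myostatin antagonist follistatin, was the largest, from 65.2, 65.4 and 70.3 to 383, 404 and 432. Tgfb1 and Tgfb2, which restrain differentiation, fell by 0.86 and 0.79.

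In the matrix list falls outnumbered rises, and in the fusion and adhesion list they were about as many. Of 36 tested extracellular matrix genes 4 rose (11.1%) and 13 fell (36.1%), with a median of -0.15. Of all genes tested 12.8% rose and 20.4% fell. Postn, a matrix protein of growing muscle and bone, went from 27.6, 26.9 and 26.9 to 123, 146 and 151, and the proteoglycan Dcn from 89.8, 58.2 and 80.2 to 174, 204 and 197. Lox, which crosslinks collagen, fell from 377, 442 and 430.2 to 156, 145 and 141, and the basement membrane protein Nid1 from 60.8, 65.3 and 48.0 to 16.8, 21.0 and 15.2. Of 22 tested fusion and adhesion genes 5 rose (22.7%) and 6 fell (27.3%), with a median of 0.00. Vcam1, an adhesion receptor of myoblasts, fell by 1.04 on its brightest probe set, with smaller values on 2 others (-0.37 and -0.11), and Itga3, a laminin receptor chain, fell by 1.20. Cdh15, the cadherin of muscle cells, went down from 1521, 1585 and 1607 to 1069, 1067 and 977 (log2 change -0.60 ± 0.09, adjusted p = 4.1e-04). Jup, the junction protein plakoglobin, fell by 1.15, and Itga6, another laminin receptor chain, rose by 1.11. Non-muscle cytoskeleton genes fell in 8 of 29 tested members (27.6%) and rose in 2 (6.9%). The rises numbered 1 to 5 under other settings. Cnn2, a calponin, went from 376, 543 and 356 to 157, 158 and 155 and non-muscle Actn1 from 1114, 1166 and 1119 to 661, 649 and 579.

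Of 25 tested antioxidant and metallothionein genes 11 fell and 3 rose, among them Gstm1, a glutathione transferase, with 1338, 1297 and 1379.7 and then 619, 599 and 585 (a second probe set was at 0.24, adjusted p = 0.46), and the quinone reductase Nqo1 with 115, 141 and 81.3 and then 25.3, 21.0 and 14.4. The secreted peroxidase Gpx3 rose from 253, 226 and 211 to 513, 508 and 491. Of 11 tested genes of the interferon response and antigen presentation 6 fell and none rose. Tapbp, which loads peptide on class I molecules, fell from 447, 516 and 511 to 178, 174 and 161, by less on 2 other probe sets (-0.53 and -0.37), and the class I gene H2-K1, which shares sequence with its relatives, fell by 0.47 on its brightest probe set and was at -0.54 and 0.33 on 2 others. The chemokine Cxcl12 fell from 119, 102 and 128 to 37.6, 36.1 and 55.9. Immediate early genes rose in 6 of 20 tested members, with Klf4 going from 213, 239.8 and 191 to 574, 613 and 521 and Nr4a1 from 53.8, 44.9 and 37.9 to 152, 193 and 190.4. Of 12 tested p53 targets 2 rose (16.7%), Plk2 and Cdkn1a, and 5 fell (41.7%), where 12.8% and 20.4% of all genes tested did. The falls numbered 3 under quantile normalization, median centring or no filter. They also numbered 3 without any 1 of the 12 h vector arrays, replicate 3 of 36 h or replicate 2 of the Sir2 12 h group.

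Most lists of general metabolism and protein synthesis had few calls, where 12.8% of all genes tested rose and 20.4% fell. Of 34 tested subunits of the respiratory chain and ATP synthase 3 rose and none fell, with a median of 0.18; Cox6a2 was counted in the muscle list and is not among them. Uqcrq, a subunit of complex III, rose by 0.61 ± 0.14 and the other two, Ndufv1 and Ndufb9, by 0.37 and 0.39. The count of rises was 1 with no filter, in a fit of the vector arrays alone and without replicate 2 of either time, and 5 under median centring. Of 23 ribosomal protein genes Rpl22 rose and Rpl13a fell, and each call was lost in several fits. Of 25 ribosome biogenesis genes 4 rose, led by Gnl2 with 0.74, and none fell; the rises numbered 1 without replicate 2 of 36 h, 2 without replicate 3 of 36 h and 8 under median centring. Of 17 fatty acid oxidation genes Acadm and Cpt1a fell, by 0.77 and 0.47, and the call of Cpt1a depended on the setting. The median of these 3 lists lay between 0.01 and 0.11. In glycolysis 4 of 16 rose and 1 fell (2 in 4 of the other settings), led by Hk2, the hexokinase of insulin-responsive tissue, with 167, 193 and 212 and then 882, 942 and 778. Heat shock genes split, with 3 rises (21.4%) and 4 falls (28.6%) in 14. The small heat shock proteins of muscle Hspb2 and Hspb8 rose by 1.28 and 0.70, and Dnajb1, a partner of Hsp70, fell by 0.77. Lysosomal and protease genes gave 2 rises (13.3%) and 3 falls (20%) in 15, close to the shares of all genes. The protease Capn1 was at 0.86 and its inhibitor Cast at -0.92. Of the deacetylases 5 of 8 tested fell, Hdac7 most, from 442, 429 and 468 to 266, 229 and 222, and Hdac1 from 268, 228 and 249.8 to 108, 148 and 147. Sirt2 rose by 0.85 ± 0.13. Sirt1, the mouse counterpart of Sir2, read 20.3, 9.48 and 14.2 and then 39.4, 19.6 and 36.9 on a dim probe set with overlapping arrays, and its call (adjusted p = 0.045) is lost in 12 of the alternative fits, under quantile normalization among them (0.068), and without replicate 2 or 3 of 12 h or replicate 1 or 3 of 36 h.

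Markers of other cell types were checked by the summed signal of each list. The 7 skeletal muscle markers, all above the filter value, summed to 7867 to 8561 at 12 h and 15822 to 16509 at 36 h. Most of the rise of this sum was in Acta1, and the marker Cdh15 fell. The 6 smooth muscle markers summed to 2173 to 2703 and then 3028 to 3307, with the defining Cnn1 and Myh11 under the filter value; most of the sum was Acta2, which myoblasts also make and which rose by 0.44 (adjusted p = 0.038, lost under quantile normalization, with no filter, with a replicate block and without any 1 of the 6 vector arrays). Of the adipocyte markers 5 were on the array, and Pparg, Adipoq and Fabp4 were under the filter value; their sum was 255 to 283 and then 278 to 294. Of the neuron markers Snap25 and Map2 were under the filter value and the sum of 4 was 1661 to 1775 and then 1585 to 1634. The 5 leukocyte markers summed to 22.8 to 34.5 and 37.6 to 48.6, and the 5 endothelial ones to 34.3 to 65.6 and 72.6 to 107.1. The 4 bone and cartilage ones summed to 45.5 to 117.9 and 119.1 to 162.2. Longer lists of 10 leukocyte and 10 endothelial genes each held 1 gene above the filter value. These were at -0.08 (Cd14) and -0.46, and neither passed. Each of the summed leukocyte and endothelial markers was under the filter value. Low MAS5 signals of this kind do not tell absent RNA from dim probes, and the part of these sums in the results was not tested.

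Cells carrying Sir2, on 6 other arrays of the same arm, went through a similar but not equal change. Over the 7453 probe sets their log2 changes had a Pearson correlation of 0.79 with those of vector cells, a description across probe sets, which are not independent replicates. In Sir2 cells 701 of the 5621 genes (12.5%) were higher and 976 (17.4%) lower. Of these, 467 were also higher in vector cells, 65.1% of the vector list and 66.6% of the Sir2 list, and 677 were lower in both, 59.0% and 69.4%. A further 12 genes were called in opposite directions. The difference of the 2 changes was called for 131 probe sets (1.76%) or 103 genes (1.83%). Of these genes 29 were called higher in vector cells, with a larger change in Sir2 cells in 14 and a smaller one in 15. Another 59 were called lower in vector cells, with a larger fall in Sir2 cells in 7 and a smaller fall or none in 52. Picking genes by their call in vector cells favours a smaller change in the other cells. The count of 131 depended on single arrays: it lay between 45 and 113 probe sets when any 1 of the 12 arrays was left out, and at 45 without replicate 2 of the Sir2 12 h group.

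Named genes with a called difference included muscle genes that rose further in Sir2 cells. Others, Myh8 (difference -1.36) and Fabp3 (difference -1.02), rose less. The median change of the thick filament list was 3.53 in vector cells and 2.81 in Sir2 cells. It was 1.42 and 1.135 for thin filament and Z-disc genes and 1.77 and 1.41 for muscle energy genes. Medians were 1.21 and 1.27 for the calcium list, 0.69 and 0.75 for the sarcolemma list, and 0.41 and 0.56 for the junction list. Pgam2 rose by 2.03 in vector cells and 3.83 in Sir2 cells (difference 1.81 ± 0.15, adjusted p = 3.7e-04), and Acta1 by 2.10 and 3.34 (difference 1.25 ± 0.15, adjusted p = 0.0025). Mfap4, a protein of microfibrils, rose by 1.89 in vector cells, from 13.1, 10.6 and 10.8 to 61.8, 61.8 and 76.1, and was at 0.14 in Sir2 cells. Cmbl, an ester hydrolase, and Cdc42ep4, an effector of the GTPase Cdc42, fell in vector cells by 1.96 and 2.27 and were at -0.20 and -0.68 in Sir2 cells. Cdh15 fell in vector cells and was at 0.32 in Sir2 cells (difference 0.92 ± 0.13, adjusted p = 0.01). Of 38 tested replication genes 7 had a called difference.

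**Figure D4:**
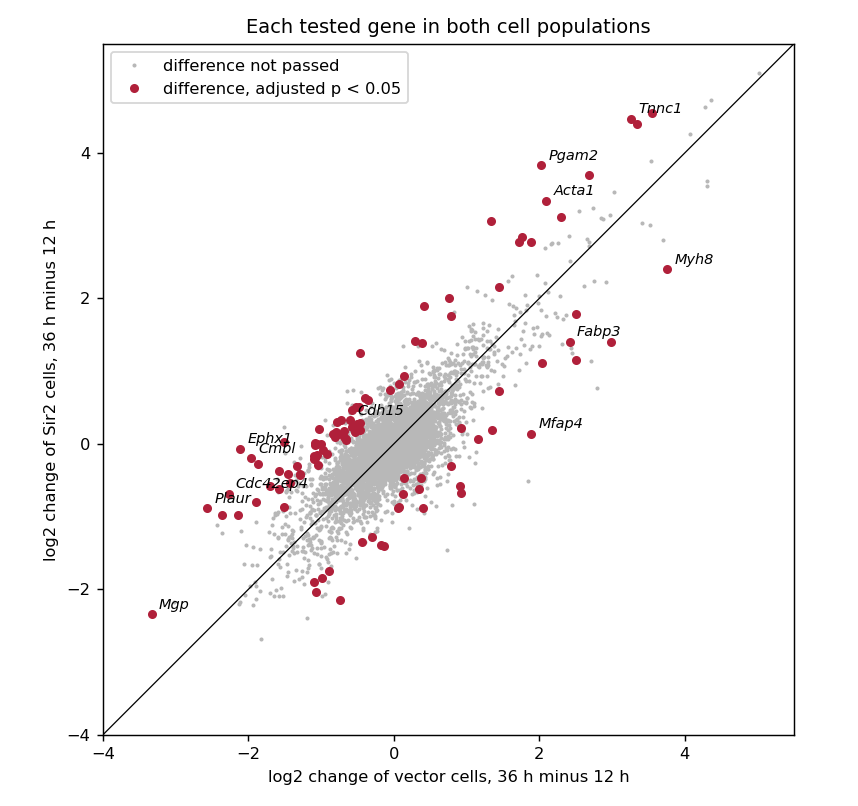
Log2 change from 12 h to 36 h of each of 5621 tested genes in vector cells (horizontal axis) and in Sir2 cells (vertical axis), with the line of equal change; red dots are the 103 genes whose difference passed an adjusted p of 0.05. Pgam2 and Acta1 lie above the line and Mfap4, Fabp3 and Myh8 below it.

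Control cells of the TSA arm, 2 arrays per time, offer a second set of differentiating C2C12 cells at 12, 24 and 48 h. The arms were scaled separately and the times differ. Values of the TSA arm include negative ones, such as -95.1 and -55.3 for Mfap4 at 12 h. The lowest value on the 12 arrays of the other arm was 0.0278. Only the order of arrays within the TSA arm and ratios to its own 12 h mean were therefore used. The sizes of these ratios cannot be compared between the arms. No test was made. Both arrays of 48 h lay above both of 12 h for 31.8% of the 5621 genes and below them for 31.3%. Of the 717 genes higher in vector cells at 36 h the share above was 64.2%, and of the 1147 lower genes the share below was 62.1%. With the arrays of 24 h in place of 48 h these shares were smaller, 50.3% and 45.2%. The shares of all genes were then 28.9% above and 28.0% below. All 40 tested mitosis genes and 36 of 38 replication genes lay below, and 12 of 13 thick filament genes above. Cdc20, for example, changed by -0.91 at 24 h and -3.18 at 48 h against its own 12 h mean (log2 of mean signals), beside -1.92 at 36 h in vector cells.

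At 24 h the order was opposite for 13.8% of the genes higher and 19.1% of the genes lower in vector cells. At 48 h it was opposite for 60 of the genes higher (8.37%) and 154 of the genes lower (13.4%). Cdh15 was one of them: in the control cells it read 4900 and 5547 at 12 h and 9264 and 9282 at 48 h, a log2 ratio of 0.83, where vector cells had -0.60. Vcan, a matrix proteoglycan, had a log2 ratio of 2.73 at 48 h in the control cells and one of -1.08 at 36 h in vector cells. Acta1 rose in both, by 4.05 at 24 h and 5.74 at 48 h in control cells, beside 2.10 at 36 h in vector cells, which started from 12 h values of 1600.1, 1642 and 1486 on the scale of their arm.

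**Figure D5:**
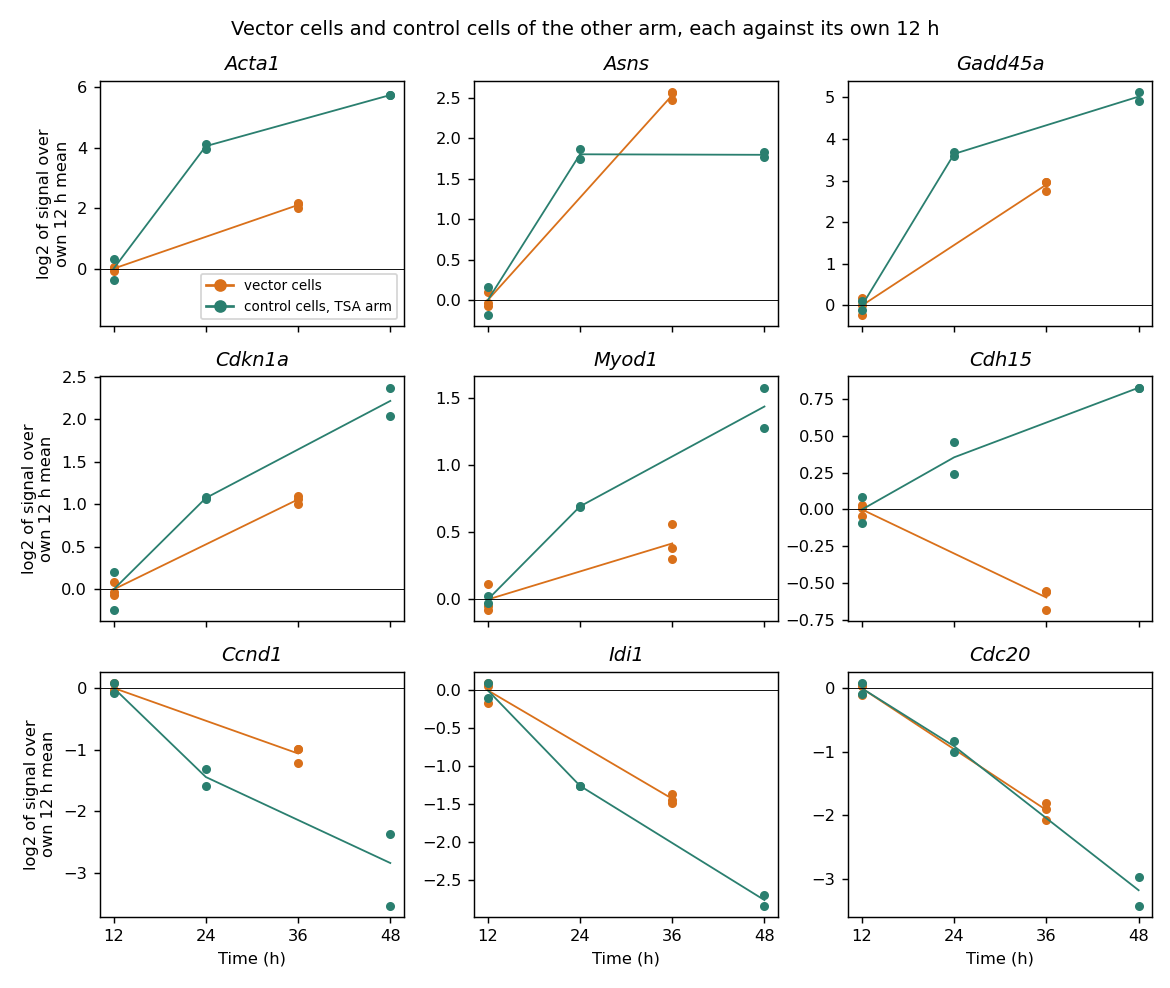
Log2 of the signal over the mean of the same cells at 12 h, for 9 genes, with time in hours; dots are single arrays and lines join group means, orange for vector cells (3 arrays per time) and green for control cells of the TSA arm (2 per time). Both sets run the same way for 8 of the 9 genes, and Cdh15 runs down to -0.60 in vector cells and up to 0.83 in control cells. The 9 genes were picked by hand and do not stand for all genes. The 48 h control arrays had the same order for 64.2% of all genes higher in vector cells and 62.1% of those lower. Sizes are not comparable between the arms.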

How the data were processed

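Total RNA of the cells was hybridised to Affymetrix arrays with 12488 probe sets. The deposited values are signal intensities, which the authors made with MAS5 per the submitters' processing notes for the arm analysed. Tool, scaling and build for the TSA arm are not given in the sources used here, and no genome build enters the intensities. Values of the TSA arm include negative ones. Affymetrix controls (66) were left out. The platform table gave 10833 of the other 12422 probe sets 1 gene symbol, 396 several and 1193 none, and 10817 symbols were updated by Entrez identifier to RefSeq names. No further scaling was made.

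The 20th percentile of all values, 8.82, was added before log2, and 7453 probe sets with a mean of at least 31.1 over the 12 arrays (the 40th percentile) were tested. limma 3.58.1 in R 4.3.3 fitted 1 mean per treatment and time over 12 arrays (8 residual and 3.93 prior degrees of freedom), with Benjamini-Hochberg adjustment within each comparison. A gene was represented by its tested probe set with the highest mean. The fit was tested before use on simulated data with independent noise, which does not cover effects shared between arrays. Tables and plots were made with Python 3.11.15, pandas 2.3.3, numpy 2.4.6 and matplotlib 3.10.9.

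The genes and the 37 gene lists (961 genes, 762 measured, 617 tested, 15 in more than 1 list) were chosen with earlier results of these data known, and no list was tested as a set. Genes were named by rule: the 12 with the largest called change in each direction whose arrays do not overlap, up to 4 of smallest p per list, fixed myogenic genes, the 5 of smallest p for the difference from Sir2 cells, and pairs of muscle and general forms. Genes named only in a count of 5 or fewer, by a difference from Sir2 cells beyond those 5, or for a promoter fall outside that rule, as do Acly, Atf4, Car3, Casq1, Casq2, Cdh15, Cdk1, Cdkn2d, Chrna1, Dag1, Ddit3, Fasn, Gadd45g, Herpud1, Hspa5, Idi1, Igf1, Itga6, Mki67, Mthfd2, Tnnc2, Tnni1, Tpm1, Tpm3, Utrn and Vcan; these were chosen after their values were seen. Motifs were searched on both strands in the 250 bases before the first listed start of 27025 RefSeq genes of GRCm38.p6. The alternatives were quantile normalization, median centring, pseudocounts of 1 and of the 40th percentile (30.5), no filter, a filter at the 60th percentile, eBayes with trend or robust, a fit of the 6 vector arrays alone, a replicate block, and each array left out in turn.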

Additional observations from a re-analysis of the deposited data

Results flagged for a closer look

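For 41 genes of the lists or named by rule, the log2 change from 12 h to 36 h in Sir2 cells differed from that in vector cells by the interaction term of limma. Each value below is the change in Sir2 cells minus that in vector cells.

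Among genes that rose in vector cells the difference was positive for Acta1 (1.25), Actc1 (0.71), Atp2a1 (1.02), Erbb3 (1.25), Mybph (1.0), Pgam2 (1.81), Smyd1 (1.06), Tnnc1 (1.21), Tnni1 (0.81) and Tnnt3 (1.06), which all belong to the filament, calcium, junction or energy lists. It was negative for Asns (-0.73), Fabp3 (-1.02), Mfap4 (-1.75), Myh8 (-1.36) and Postn (-0.93). Of these, Myh8 also belongs to the thick filament list and Fabp3 to the muscle energy list.

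Among genes that fell in vector cells the difference was positive, so that the fall was smaller or absent in Sir2 cells, for Cdc42ep4 (1.59), Cdh15 (0.92), Cmbl (1.77), Elovl6 (1.12), Ephx1 (2.05), Gadd45g (0.96), H2-K1 (0.65), Igfbp6 (0.96), Krt19 (1.16), Mgp (0.98), Pcolce (1.39), Plaur (1.68), Tpm1 (0.65), Vcam1 (0.75) and Vcan (1.05). It was negative, a larger fall in Sir2 cells, for the replication genes Fen1 (-0.79), Mcm3 (-0.86), Mcm4 (-0.86), Rrm2 (-0.98), Tk1 (-0.97) and Uhrf1 (-1.40).

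The change in vector cells itself did not pass for Actg2 (-0.82), Col6a1 (0.80), Ncam1 (0.75), Pola2 (-0.93) and Tagln (-1.22). Of the 854 values of these differences under other settings 580 kept their call, 274 lost it and none changed sign. The 16 genes called in every setting run were Acta1, Atp2a1, Cdc42ep4, Cdh15, Cmbl, Ephx1, Fabp3, Gadd45g, Igfbp6, Mfap4, Pcolce, Pgam2, Plaur, Rrm2, Tagln and Tnnc1.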

How the results depend on the processing

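The count of probe sets higher in vector cells at 36 h was 703 to 991 when 1 of the 12 arrays was left out and 817 to 1144 under the other alternatives, and the count lower was 1144 to 1478 and 1252 to 1508. Between 75.5% and 99.9% of the 2389 calls recurred in each alternative. The count of differences from Sir2 cells, 131, was 45 to 113 when 1 array was left out, 46 with no filter, 208 with the eBayes trend and 57 with a replicate block. The letters were not taken as pairs, because nothing in the labels says that a letter marks a shared culture. Deviations of vector arrays with the same letter at 12 h and 36 h correlated at 0.010, 0.139 and -0.040, and those with different letters at -0.109 to 0.103. Deviations from a mean of 3 arrays are tied to each other, so these values cannot exclude a shared culture or day. With the block 849 probe sets were higher and 1401 lower. For 179 named genes 3780 of 3914 alternative values kept direction and call, 101 lost the call and 23 gained it. The 10 that changed sign were of genes not called. Leaving out 1 array gave -0.00047 to 0.25 for Actg2, with the negative value without replicate 3 of 12 h; -0.17 to 0.058 for Cd14, -1.09 to 0.16 for Itga5 and -0.43 to 0.11 for Lep, with the positive values without replicate 2, 3 and 2 of 36 h; -0.078 to 0.089 for Cebpa, positive without replicate 3 of 12 h or 2 of 36 h (0.021); and -0.12 to 0.14 for Chrne, negative without replicate 2 of 12 h (-0.042) or 3 of 36 h. Cebpa was also at 0.052 with quantile normalization and 0.039 with median centring. Of 1628 counts of list members called higher or lower under alternatives 125 moved by more than 1.5 times, mostly in lists with few calls, and the cause was not tested. In the control cells quantile normalization gave 63.5% and 62.6% for the shares of 64.2% and 62.1%. Probe sets near the filter value have little signal over background, and 3 arrays per group limit the size of change that can be called.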
